A study of Mus musculus with 8 samples.

Results

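The regions described here carried H3K27ac at a protein-coding promoter in the embryonic adrenal gland and were called at no other age. They were found by merging the peaks of 7 deposited lists on chromosomes 1 to 19 into 147792 union regions. Of these, 64276 overlapped a peak of the E18.5 list and no peak of the other 6 lists. Among them, 2157 lay within 1 kb of the transcription start of a protein-coding gene, which is the set of members. The members were chosen by the calls of the 7 peak lists, so the number of members and the absence of other calls are the rule and not a result.

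The study mapped acetylation of histone H3 in the entire adrenal gland of mice of the inbred strain C57BL/6J, by chromatin immunoprecipitation with an H3K27ac antibody and sequencing. The embryonic library (E18.5) was made from 30 pooled glands of embryos of undetermined sex. At postnatal day 1 (P1) there was a female and a male library of 22 glands each. The 2-week libraries pooled 12 glands and the 12-week libraries 6 glands for each sex. There was thus 1 library per group, no genetic change or treatment in any of them, and no replicate behind any value. An input DNA library from 12-week females was not analysed here. The glands were taken whole, so cortex, medulla, capsule and vessels are mixed in each list, and fewer cells of a type and less acetylation per cell cannot be told apart. With 1 library per group no difference between ages was tested, and intervals on shares are 95% Wilson intervals that cover counting error only.

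H3K27ac is laid down by the acetyltransferases p300 and CBP and marks active promoters and enhancers. Many promoters of mammalian genes lie in CpG islands, stretches rich in unmethylated CpG dinucleotides. At genes that are silent in a tissue, such islands can be held by Polycomb complexes, which place a methyl group on the same lysine. Developmental regulators and many neuronal genes belong to this class. The adrenal gland joins a steroid-producing cortex of mesodermal origin with a medulla of chromaffin cells, which arise from the neural crest partly through Schwann cell precursors that travel along nerves.

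The labelled tissue was checked against marker genes. A peak of the E18.5 list lay at a promoter of 17 of 17 steroidogenic genes, 15 of 16 chromaffin genes, 13 of 14 genes of the zona glomerulosa and capsule and 8 of 8 endothelial genes. The E18.5 list was the longest, with 106203 peaks on these chromosomes against 43638 to 66594 in the other lists. It also had the largest share of weak peaks. A −log10 q below 2 was found for 72.0% of its peaks and for 29.5% to 52.5% of those elsewhere. The lists hold no read counts, so the depth of each library is unknown, and where a list has no call the mark may still be present.

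The members' promoter sequences are shown first for the strongest peaks, because the CpG content of the starts is the feature that the results below turn on. These are the starts of the 8 members with the highest −log10 q, read from GRCm38 from 250 bases before the start to 50 bases after it, on the strand of the gene, 5′ to 3′. Capitals mark each CpG.
Sfi1 (first start): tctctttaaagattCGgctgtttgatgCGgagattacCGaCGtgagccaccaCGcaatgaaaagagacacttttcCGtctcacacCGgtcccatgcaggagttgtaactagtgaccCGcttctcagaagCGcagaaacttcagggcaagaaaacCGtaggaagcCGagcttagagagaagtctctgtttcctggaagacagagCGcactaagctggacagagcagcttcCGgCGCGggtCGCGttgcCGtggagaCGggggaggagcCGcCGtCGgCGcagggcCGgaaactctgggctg
4930467E23Rik: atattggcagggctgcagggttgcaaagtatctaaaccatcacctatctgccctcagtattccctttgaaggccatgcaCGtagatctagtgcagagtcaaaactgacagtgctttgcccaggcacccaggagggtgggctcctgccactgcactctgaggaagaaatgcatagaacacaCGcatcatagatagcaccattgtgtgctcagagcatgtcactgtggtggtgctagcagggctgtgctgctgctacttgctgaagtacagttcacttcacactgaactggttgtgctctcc
Gm10273: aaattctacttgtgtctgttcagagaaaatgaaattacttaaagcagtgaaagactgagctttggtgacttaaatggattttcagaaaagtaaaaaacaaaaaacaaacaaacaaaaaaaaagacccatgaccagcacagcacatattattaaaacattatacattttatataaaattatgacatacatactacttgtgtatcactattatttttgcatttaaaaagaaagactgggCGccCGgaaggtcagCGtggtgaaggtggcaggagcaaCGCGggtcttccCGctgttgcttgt
Sfi1 (second start): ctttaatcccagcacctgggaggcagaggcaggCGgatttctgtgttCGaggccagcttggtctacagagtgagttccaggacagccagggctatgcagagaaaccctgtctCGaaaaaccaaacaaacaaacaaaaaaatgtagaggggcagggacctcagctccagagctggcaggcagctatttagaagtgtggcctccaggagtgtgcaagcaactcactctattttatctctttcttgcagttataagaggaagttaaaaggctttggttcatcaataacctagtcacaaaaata
Duxf3: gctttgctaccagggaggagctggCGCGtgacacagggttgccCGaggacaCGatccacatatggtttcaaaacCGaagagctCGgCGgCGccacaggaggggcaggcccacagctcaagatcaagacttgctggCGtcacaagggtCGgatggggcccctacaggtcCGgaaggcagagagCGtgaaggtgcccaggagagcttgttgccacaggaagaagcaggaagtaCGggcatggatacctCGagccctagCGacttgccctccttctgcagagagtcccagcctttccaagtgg
Astn2: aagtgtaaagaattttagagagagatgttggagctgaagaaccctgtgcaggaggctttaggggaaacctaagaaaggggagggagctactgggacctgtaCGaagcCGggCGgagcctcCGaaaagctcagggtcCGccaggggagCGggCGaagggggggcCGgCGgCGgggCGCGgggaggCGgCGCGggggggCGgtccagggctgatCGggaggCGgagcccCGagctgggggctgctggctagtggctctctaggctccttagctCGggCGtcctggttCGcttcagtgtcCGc
Chrna5: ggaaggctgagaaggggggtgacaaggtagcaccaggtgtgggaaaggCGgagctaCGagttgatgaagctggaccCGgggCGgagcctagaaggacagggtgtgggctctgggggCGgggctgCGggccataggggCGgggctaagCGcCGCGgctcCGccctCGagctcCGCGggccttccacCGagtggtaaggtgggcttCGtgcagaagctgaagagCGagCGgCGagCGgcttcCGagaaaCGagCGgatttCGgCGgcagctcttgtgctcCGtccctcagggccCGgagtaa
Lsamp: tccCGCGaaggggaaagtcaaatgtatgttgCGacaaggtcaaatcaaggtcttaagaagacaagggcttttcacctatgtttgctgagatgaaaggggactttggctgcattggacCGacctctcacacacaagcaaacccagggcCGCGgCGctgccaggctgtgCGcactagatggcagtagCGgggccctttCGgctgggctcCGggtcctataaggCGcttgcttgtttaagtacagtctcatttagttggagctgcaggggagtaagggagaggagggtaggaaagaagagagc

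The windows lie at chr11:3193414-3193713 and chr11:3189003-3189302 (both minus strand, Sfi1), chr8:19729326-19729625 (plus, 4930467E23Rik), chr10:59395382-59395681 (plus, Gm10273), chr10:58231964-58232263 (minus, Duxf3), chr4:66404434-66404733 (minus, Astn2), chr9:54981283-54981582 (plus, Chrna5) and chr16:39984121-39984420 (plus, Lsamp). They hold between 2 CpGs, at 4930467E23Rik, and 27 CpGs, at Chrna5. The windows of the first Sfi1 start, Astn2 and Chrna5 hold 24, 23 and 27 CpGs, and those of the second Sfi1 start and Gm10273 hold 3 and 6. Both CpG-dense and CpG-poor starts thus occurred among the 8 strongest members.

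Promoter regions called in a single list were most numerous at E18.5, which also had the longest list (plot of regions called in 1 list only). The 12-week lists held 251 such regions in females and 37 in males, the P1 lists 114 and 45, and the 2-week lists 38 and 23. This order follows from the calls that chose the members. With lists of equal length the E18.5 number was 802, and the other lists were not recounted. The share of promoters among single-list regions was low in every list when all deposited peaks were admitted. It was 3.36% at E18.5 (2157 of 64276, interval 3.22% to 3.50%), 2.44% in P1 males, 2.27% in P1 females, 2.20% and 1.86% at 2 weeks (females, then males), and 2.13% and 1.22% at 12 weeks (females, then males). Promoter windows cover 2.07% of the bases of these chromosomes. A region was counted when it only touched a window, and wider regions touch one more often. The shares of regions are thus not directly comparable with 2.07%. Of the regions called in all 7 lists, 55.6% were promoter regions (10845 of 19521). With stricter peaks in every list the E18.5 share was higher. It was 5.80% at a −log10 q of at least 2 and 58.2% (191 of 328) at 5 or more, where only 6 of the 191 are members.

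**Figure D1:**
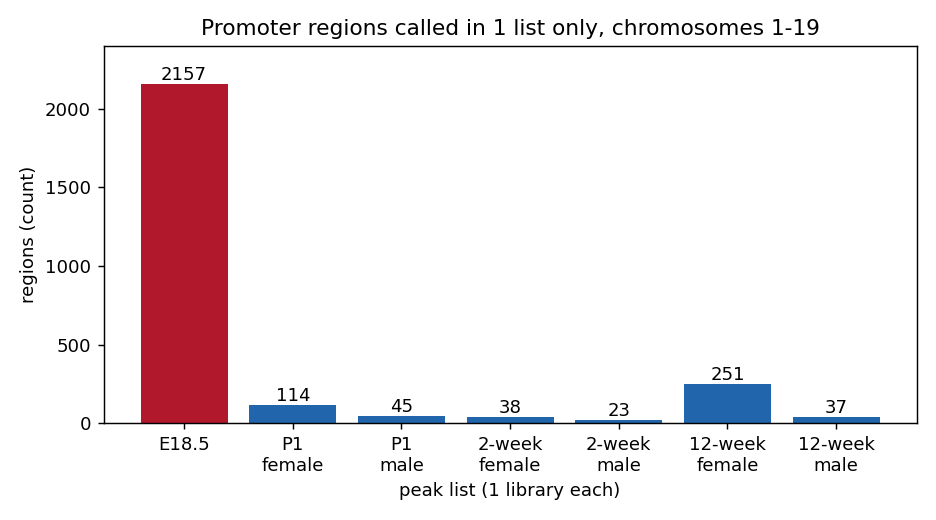
The bars give the number of promoter regions on chromosomes 1 to 19 called in 1 peak list and in none of the other 6, by list (horizontal axis: peak list; vertical axis: regions). E18.5, the longest list, stands at 2157, and the next, 12-week females, at 251. Each list comes from 1 library and the bars have no error.

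Most promoters acetylated at E18.5 were called at other ages as well. The E18.5 list touched 14878 promoter regions. All 6 other lists called 10845 of them (72.9%), and no other list called the 2157 members (14.5%). Between these ends, 432 were called in 1 other list, 324 in 2, 267 in 3, 363 in 4 and 490 in 5. Of the 432, 211 were shared with 12-week females and 15 with 12-week males. At P1 the partner was the female list in 78 cases and the male list in 58, and at 2 weeks in 38 and 32. Only 59 promoter regions were shared by E18.5 and the P1 lists of both sexes and absent from the rest.

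The E18.5 peaks at members were weaker than those at promoters called in every list, and lay near the middle of their own list. A call depends on peak strength, so this contrast is partly set by the rule and is only a description. Each peak has a −log10 q and a fold enrichment over background from the authors' peak caller, which describe that peak in its own library. At members the median −log10 q was 1.48 (range 1.06 to 11.5) and the median fold 2.82. The E18.5 peaks at promoter regions called in all 7 lists had medians of 10.9 and 5.99. In 82.3% of members (1776 of 2157, interval 80.7% to 83.9%) the −log10 q was under 2, against 72.0% of all E18.5 peaks. The median member stood at the 44.7th percentile of the E18.5 list by −log10 q, and promoter regions called in all 7 lists at the 94.6th. The −log10 q was at least 3 in 73 members and at least 5 in 6. Member peaks had a median width of 659 bp, close to the 637 bp of the whole E18.5 list, against 1505 bp at promoter regions called in all 7 lists. The 251 promoter regions of 12-week females alone had a median −log10 q of 1.97 and a median fold of 2.73 in their own list. Their median stood at the 28.4th percentile of that list, so weak calls were not limited to the E18.5 list.

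The 5 strongest members lay at Sfi1, 4930467E23Rik, Gm10273, Sfi1 again and Duxf3. Sfi1 encodes a centrin-binding protein of the spindle pole. Its first region (chr11:3192147-3197999, minus-strand gene) was the strongest and the widest of all members, with a −log10 q of 11.5, a width of 5853 bp and a fold of only 2.03. Its second region (chr11:3187574-3189346) had a −log10 q of 5.34 and a fold of 1.72. Duxf3, a double-homeobox gene present in many copies, had a −log10 q of 5.08 and a fold of 2.42 over 3476 bp. Only 28 of 2157 members had a fold under 2.5, and these 3 were among them.

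Repeated sequence was counted as the share of a peak's 31-base words that occur at more than 1 place in GRCm38. The share was 100% at 4930467E23Rik, 83.3% at Gm10273, 79.8% at Duxf3, and 13.1% and 12.7% at the 2 Sfi1 regions. Copies that the assembly lacks are not counted, so a low share does not show that a region is single-copy. At the 2 Sfi1 regions 41.8% and 49.9% of the peak was repeat-masked sequence, and the part of missing copies in their calls was not tested. Of the 20 strongest members 6 were multi-copy, with at least 50% of such words; the others are Gm11273, AW822073 and Gm10031. Over all members 191 were multi-copy (8.85%), against 171 of 10845 promoter regions called in all 7 lists (1.58%). Of the 28 members with a fold under 2.5, 14 were multi-copy. Reads of multi-copy peaks may come from another copy, so these genes are uncertain, and the part of copy number or of the input in their calls was not tested.

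The next 3 members, at Astn2, Chrna5 and Lsamp, had no multi-copy words (0%). Astn2 encodes astrotactin 2, a membrane protein of migrating neurons. Its peak (chr4:66404042-66404517, coding sequence and UTR at the start) had a −log10 q of 5.05 and a fold of 4.39. Chrna5, a subunit of the nicotinic acetylcholine receptor, had a peak of 369 bp over its start (chr9:54981396-54981764) with a −log10 q of 4.98 and a fold of 4.298. The nearest peaks of the other lists lay 29324 to 29762 bp away in all 6. Lsamp, a cell adhesion protein of the limbic system, had a −log10 q of 4.60 and a fold of 4.19 at a peak 122 bp from a start (chr16:39984493-39984853). Its nearest peak in another list lay 860023 bp away, although a different start of the gene was called in at least 1 of them.

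Gap43, a growth-cone protein of extending axons, had a −log10 q of 4.54 at a 294 bp peak in an intron, 794 bp from the start. Lgi2, a secreted leucine-rich protein of neurons, had 4.52 over its start. Dab1, the adaptor that carries the reelin signal into migrating neurons, had 4.40, and the closest peak of another list lay 120079 bp away. Triobp (4.12), which binds actin, Rtn2 (4.08), a reticulon of the endoplasmic reticulum, Rsl24d1 (3.94), a ribosome assembly factor, and Timp4 (3.78), a metalloproteinase inhibitor, belonged to genes that another list called. For Triobp and Rtn2 the calls elsewhere lay only at starts more than 1 kb from the member. Rsl24d1 and Timp4 were called elsewhere at the start of the member itself, beside it. The Timp4 peak lay 36 bp from a peak of P1 females, the closest neighbour among the 20. Plek2 and Paqr9 (both 3.82), a pleckstrin and a membrane receptor, had no start called in another list. Of the 20 strongest members 17 covered a start, 9 had a CpG-rich start and 5 belonged to genes that another list called.

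Width ordered the members differently. After the first Sfi1 region, the widest were at Pde2a (4500 bp), a phosphodiesterase, Apc2 (3925 bp), a neuronal relative of the APC tumour suppressor, Tmem132e (3722 bp), Acaa1b (3631 bp), a peroxisomal thiolase, and Duxf3. Ctdsp2 (3436 bp), Gpsm1 (3340 bp), Ecel1 (3316 bp) and Slc22a18 (3266 bp) completed the 10 widest. Their −log10 q ranged widely, from 1.33 at Gpsm1 to 2.67 at Acaa1b apart from the Sfi1 and Duxf3 regions. Only the first Sfi1 region and Duxf3 were among both the 10 widest and the 20 strongest members.

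Members covered a start less often than promoters called in every list. A protein-coding start lay inside the region in 943 of 2157 members (43.7%) and in 98.7% of the promoter regions called in all 7 lists. The latter regions merge peaks of all 7 lists and had a median width of 2946 bp, against 659 bp for members, so these 2 shares are not alike. E18.5 peaks alone compare as follows. Around the start chosen for each region, coverage by E18.5 peaks was 14.8% of members at 1000 bp upstream, 43.7% at the start, 49.1% at 150 bp downstream and 23.7% at 1000 bp downstream. In regions called in all 7 lists it was 20.9%, 90.4%, 95.3% and 42.8% at these positions. Both profiles thus peaked just downstream of the start, and the members' profile was lower and flatter. By annotation 58.6% of members touched a UTR and 52.9% coding sequence, while 15.5% lay in introns alone and 10.3% outside genes.

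**Figure D2:**
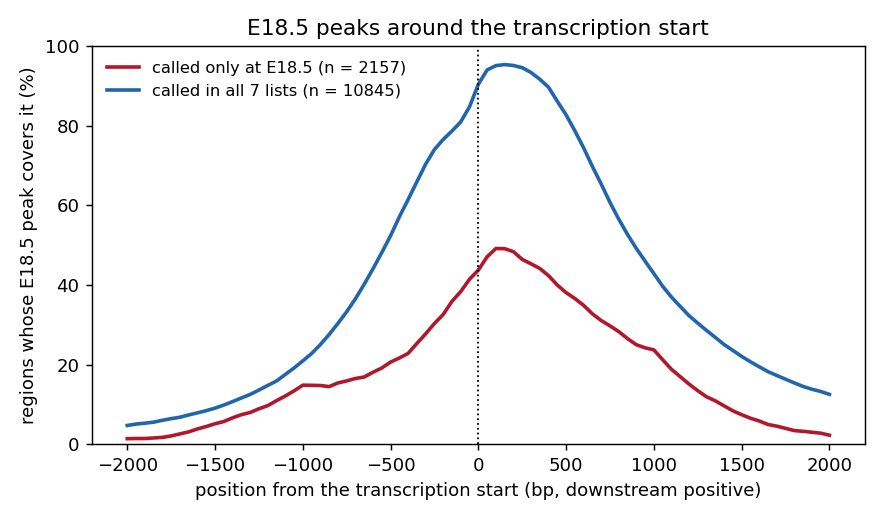
The lines give the percentage of regions whose E18.5 peak covers each position (vertical axis) against the distance from the transcription start in bp, downstream positive (horizontal axis), for 2157 members and 10845 promoter regions called in all 7 lists. At the start the lines stand at 43.7% and 90.4%; both are highest downstream of it.

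At the limit of the distance rule the peaks were weak on both sides. Just inside 1 kb lay Zfyve28 at 1000 bp (−log10 q of 1.13) and Phlda2 at 996 bp (1.91), and just outside lay Btnl6 (1.69) and Nsun7 (1.13), both at 1002 bp. The nearest peak of another list was close to some members and far from most. It lay within 1 kb of 253 members (11.7%), within 5 kb of 756 (35.0%) and beyond 100 kb for 211 (9.78%), with a median of 10060 bp. The closest were at Celsr3, 5 bp from a peak of 2-week males, and Rab15, 7 bp from a peak of 12-week males. By list, a peak lay within 1 kb of 8.11% of members in 12-week females, 5.10% in 12-week males, and 3.25% to 3.76% in the other 4 lists.

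CpG content was lower at members than at the promoters called in every list. A start was called CpG-rich when the 1 kb around it had at least 50% G and C and a CpG count of at least 0.6 of that expected from base composition. This held for 467 of 2157 members (21.7%, interval 19.96% to 23.4%). It held for 7937 of 10845 promoter regions called in all 7 lists (73.2%) and for 46.3% of all 39515 protein-coding starts. Among 10101 starts called in no list it held for 336 (3.33%). Members thus lay between the common promoters and the uncalled ones (plot of CpG content). Promoter regions of 12-week females alone were CpG-rich in 18 of 251 cases (7.17%), and those of E18.5 and both P1 lists in 9 of 59 (15.3%). At a −log10 q of 2 or more, 143 of 381 members had such a start (37.5%), as had 33.8% of 802 regions, 705 of them members, when each list kept only its 43638 strongest peaks.

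**Figure D3:**
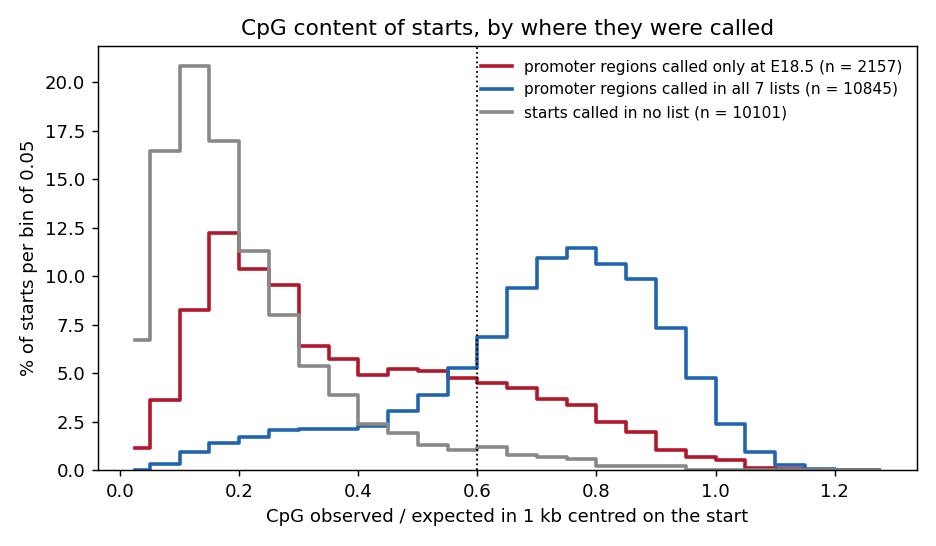
The steps give the percentage of starts in each bin of 0.05 (vertical axis) of the ratio of observed to expected CpG in 1 kb centred on the start (horizontal axis), for 2157 members, 10845 promoter regions called in all 7 lists and 10101 starts called in no list. The dotted line at 0.6 is the limit for a CpG-rich start; members peak below it with a tail above it, where 467 of them lie once G and C content is also at least 50%.

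Seen from the starts, few CpG-rich promoters were left without a call. Of all CpG-rich starts 94.8% were called in at least 1 of the other 6 lists, 3.36% only at E18.5 and 1.84% in no list. Stronger members were more often CpG-rich. The share was 15.3% (170 of 1112) at a −log10 q under 1.5, 23.2% (154 of 664) from 1.5 to 2, 34.1% (105 of 308) from 2 to 3 and 53.7% (36 of 67) from 3 to 5. At 5 or more it was 2 of 6, and 3 of those 6 were multi-copy. CpG-rich members had a median −log10 q of 1.67 and a median width of 822 bp, against 1.45 and 622.5 bp for the rest. They covered a start in 59.7% of cases against 39.3%, and their nearest peak in another list lay at a median of 23212 bp against 7899.5 bp.

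**Figure D4:**
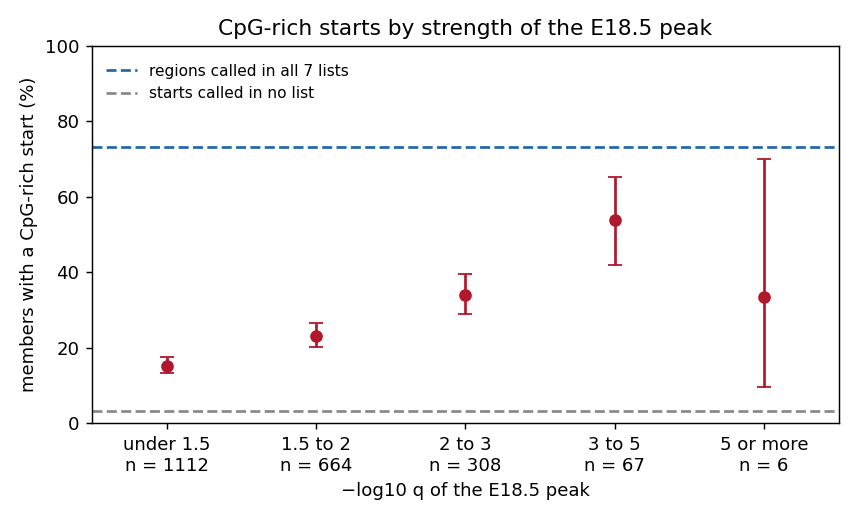
Points give the percentage of members with a CpG-rich start (vertical axis) by −log10 q of their E18.5 peak (horizontal axis, with the number of members per bin), and bars are 95% Wilson intervals. The share rises from 15.3% to 53.7% over the first 4 bins, and the last bin holds 6 members; dashed lines mark 73.2% for regions called in all 7 lists and 3.33% for starts called in no list.

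Base composition was shifted in the E18.5 list away from promoters too. Regions called only at E18.5 had a median G and C content of 55.2% at promoters and 51.5% elsewhere. In the 6 other lists single-list regions had 46.6% to 51.5% at promoters and 45.6% to 48.0% elsewhere, and the genome sequence of these chromosomes has 41.9%. The part of this shift in the members' CpG content was not tested.

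Short motifs were searched on both strands of the same 300-base windows, and a match is only a description of the sequence. The GC box (GGGCGG), the site of Sp1, was found in 33.2% of member windows, 66.7% of windows called in all 7 lists and 45.9% of all starts. Within CpG-rich starts the share was alike, 72.2% of 467 member windows and 75.5% of 7937 windows called in all 7 lists. The ETS, YY1 and NRF1 motifs, also of broadly active promoters, were rarer in members at the same CpG class. The ETS motif (CCGGAAGT) was in 1.499% of CpG-rich member windows (interval 0.728% to 3.06%) and 9.53% of those called in all 7 lists. The YY1 motif (AAGATGGCG) was in 0.214% and 4.08%, and the NRF1 motif (GCATGCGC) in 2.78% and 6.29%. CpG-rich starts called in no list held the ETS motif in 2.68%, the YY1 motif in 0 of 336 and the NRF1 motif in 5.36%.

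The TATA box (TATAAA) was in 12.3% of member windows, 5.75% of windows called in all 7 lists and 11.8% of all starts. Among CpG-rich starts it was in 6.42% of member windows (interval 4.54% to 9.02%) and 4.70% of windows called in all 7 lists. The CCAAT box (CCAAT) was in 33.1%, 35.5% and 36.5%, the cAMP response element (TGACGTCA) in 1.25%, 3.38% and 2.29%, and the USF E-box (CACGTG) in 6.49%, 9.52% and 7.56%. The motif of NR5A1 (TCAAGGTCA), the nuclear receptor of steroid-producing cells, was in 0.325%, 0.304% and 0.423%. The left part of the REST site (TTCAGCACC), a repressor of neuronal genes, was in 0.464%, 0.267% and 0.385%. These last 2 motifs were too rare in every set to separate the members. Among CpG-rich starts the USF E-box was in 10.1% of member windows and 10.6% of windows called in all 7 lists. The CCAAT box was there in 28.3% and 35.1%, and the cAMP response element in 2.36% and 3.73%.

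The members belonged to 2032 of 20720 protein-coding genes, a background of 9.81%. Of these genes 156 had more than 1 member, and 39 members lay near more than 1 gene. At least 1 start of the gene lay within 1 kb of a peak of another list for 548 of the 2032 (26.97%, interval 25.1% to 28.9%). In 228 of the 548 (41.6%) that was a start within 1 kb of the member, so the other list had a peak beside the member at the same promoter. In 320 (58.4%) it was only at starts further away, and the member lay within 1 kb of a different start, which it did not always cover. The other 1484 genes had no start called elsewhere. They make up 22.2% of the 6689 genes that no other list called, and 5182 genes were called in no list at all. Counts below are read against 9.81% for all genes, 22.2% for genes not called elsewhere and 548 of 14031 for genes called elsewhere.

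Genes that define the gland held no members. Members were at 0 of 17 steroidogenic genes, 0 of 16 chromaffin genes, 0 of 14 genes of the zona glomerulosa and capsule, 0 of 8 endothelial genes and 0 of 16 cell cycle genes. Every gene of these 5 lists was called in at least 1 other list, so none could be a gene called only at E18.5. Members were rare among all such genes (548 of 14031), so these zeros are not particular to the gland. Of 10 erythroid genes 0 had a member, and 9 were called elsewhere. Of 10 genes of skeletal and heart muscle 0 had a member as well, although 8 were called in no other list.

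Genes of the neural crest and of Schwann cells had members in 5 of 11 cases. Sox2, a factor of stem and glial cells, had the strongest of these peaks (chr3:34650179-34651441, −log10 q of 2.66, fold 3.35), with a CpG-rich start. Foxd3, a factor of early neural crest, had 2.05 and lay over coding sequence 503 bp from the start. Egr2, which drives myelination, had 2.04 at a 183 bp peak, 120 bp from a peak of 2-week males. Sox10, the factor that marks neural crest and glia throughout, had 1.77 at a region outside the gene, 121 bp from the start (chr15:79165361-79166315). Mbp, a myelin protein, had 1.49 in an intron, 521 bp from an alternative start. Other lists called Egr2 at the same start and Mbp at others, so 3 of the 5 genes were called at E18.5 alone.

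Neuronal genes had members in 6 of 17 cases, and no other list called any of the 6. After Gap43 came Elavl3, an RNA-binding protein of neurons, with a −log10 q of 3.01 and a fold of 3.53 over its CpG-rich start (chr9:22050963-22052366). Stmn2, a regulator of microtubules in axons, had 2.11 at a peak of 2202 bp that began 79 bp from the start. Nefl and Nefm, neighbouring genes for the light and medium neurofilament proteins, had 1.89 and 1.64. Neurog2, a proneural factor, had 1.28, near the lower end of the list.

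Kidney genes had members in 6 of 15 cases, and none of the 15 was called in any other list. Lrp2, the megalin receptor of the proximal tubule, had a −log10 q of 1.83, Lhx1 1.47, Pax8 1.36, Aqp2 1.31 and Pax2 1.13. Lhx1, Pax8 and Pax2 are factors of kidney development that other tissues also use, and Aqp2 is the water channel of the collecting duct. All 6 peaks were under a −log10 q of 2, and the other 9 kidney genes, among them the podocyte gene Nphs1 and the tubule genes Umod and Slc12a1, were called in no list. The part of kidney tissue in these calls was not tested.

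Markers of other tissues gave small counts. Epithelial genes had members in 3 of 8 cases (Epcam 1.95, Krt5 1.63 and Cdh1 1.42 in −log10 q), and no other list called these 3. Germ line genes had 4 of 14 (Piwil2 1.44, Zfp42 1.41, Dppa3 1.36 and Dnmt3l 1.24). Immune genes had 3 of 13, among them the myeloid peroxidase Mpo (1.33) and the T-cell gene Cd4 (1.19). Liver genes had 2 of 11, the endoderm factor Foxa2 (2.01) and the plasma protein gene Ahsg (1.41), and fat genes 1 of 7, Adipoq (1.93). Over the 16 lists 32 of 203 genes had a member (15.8%, interval 11.4% to 21.4%). Most of these calls were weak. The number fell to 13 with lists of equal length and to 7 with a −log10 q of at least 2 at E18.5.

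Fetal growth genes had members in 2 of 16 cases, both at alternative starts of imprinted genes. Igf2, the fetal insulin-like growth factor, had a member of 2393 bp (chr7:142665566-142667958, coding sequence and UTR) with a −log10 q of 1.40. It lay 1346 bp from a peak of P1 females. Mest had a member of 548 bp with 1.98, 670 bp from a peak of P1 males. Other starts of both genes were called in other lists, so neither gene was called at E18.5 alone.

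**Figure D5:**
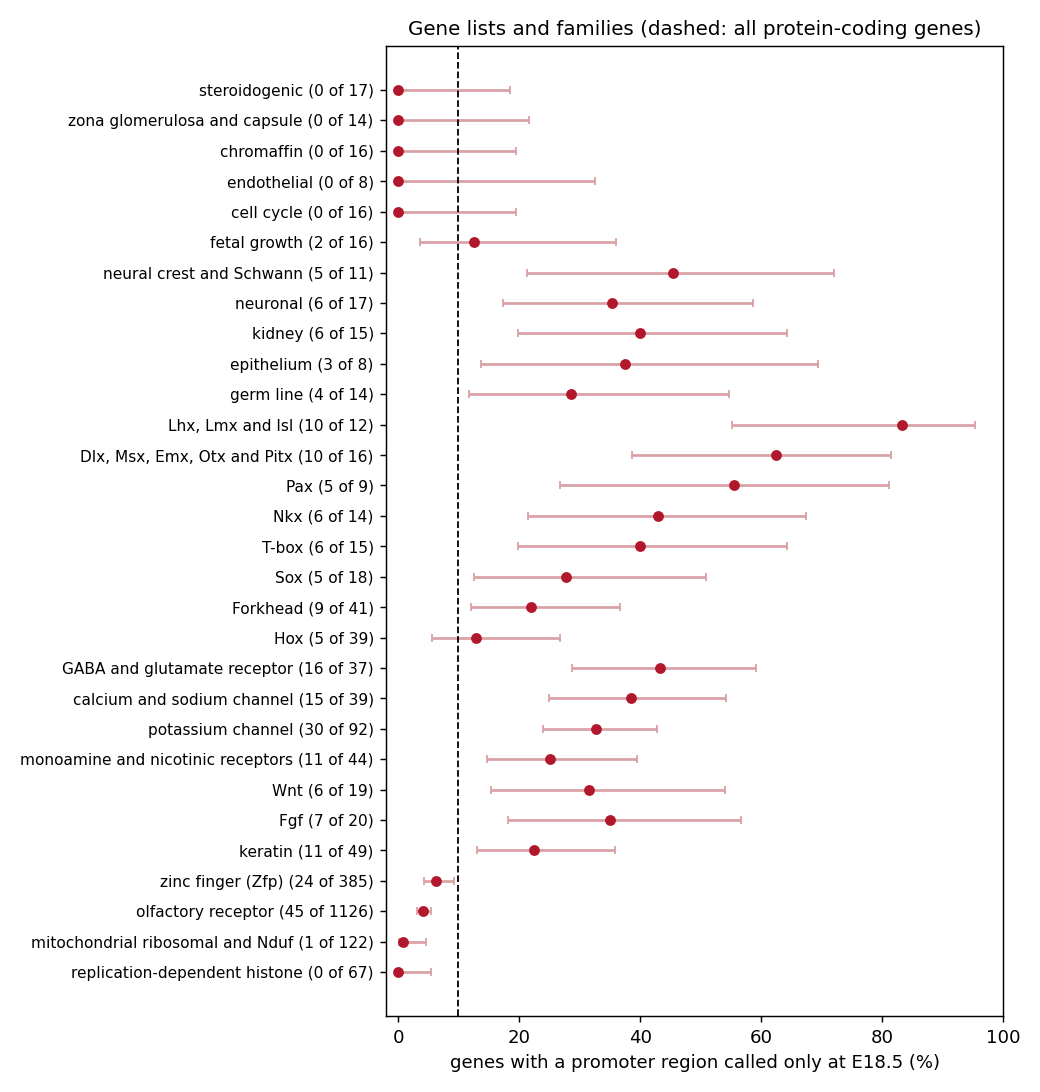
Points give the percentage of genes with a promoter region called only at E18.5 (horizontal axis) in selected gene lists and families (vertical axis, with member genes of all genes). Bars are 95% Wilson intervals for counting error. Not drawn are, among others, the liver, immune, erythroid, fat and muscle lists. The Irx and sine oculis homeobox, Gata and neural basic helix-loop-helix families are not drawn either. The dashed line is the 9.81% of all protein-coding genes. Lhx, Lmx and Isl genes stand highest (10 of 12), and steroidogenic and chromaffin genes, all called in other lists, at 0.

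Families of developmental transcription factors held members in 61 of 201 genes (30.3%, interval 24.4% to 37.0%), against 9.81% of all genes. LIM homeobox genes (Lhx, Lmx and Isl), which pattern neurons and limbs, had 10 of 12. Their strongest members were Lmx1a (−log10 q of 3.18, fold 3.66), Lhx2 (2.76) and Lmx1b (2.104), and all 3 starts were CpG-rich. Genes of the Dlx, Msx, Emx, Otx and Pitx families had 10 of 16, among them Dlx2 (2.25, over 2674 bp). The neighbouring Dlx1 (1.80) had a member as well, and so had the neighbouring pair Dlx3 (1.68) and Dlx4 (1.55). Pax genes had 5 of 9, and no other list called any of the 9; Pax9 had 1.88, Pax6 1.42, Pax8 1.36, Pax3 1.34 and Pax2 1.13.

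Nkx genes had 6 of 14, among them Nkx2-9 (2.14), and T-box genes 6 of 15, among them Eomes (1.77) and Tbx10 (1.75). Sox genes had 5 of 18, where Sox14 (1.35), Sox13 (1.66) and Sox21 joined Sox2 and Sox10, and forkhead genes 9 of 41, where Foxf2 and Foxb2 (both 1.62) joined Foxd3 and Foxa2. Hox genes, which set position along the body axis, had 5 of 39, close to all genes, and 28 of the 39 were called in other lists. Their members were Hoxb13 (2.63), Hoxa9 (1.75), Hoxd4 (1.59), Hoxa11 (1.36) and Hoxd3 (1.13). Neural basic helix-loop-helix genes had 3 of 20 (Atoh1 1.52, Neurog2 and Olig1 1.15), Gata genes 1 of 5 (Gata5 1.37) and Irx and sine oculis homeobox genes 1 of 12 (Irx2 1.34).

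The Wnt, Fgf, Bmp and Gdf families, most of whose genes encode secreted signals, had members in 18 of 59 genes (30.5%). Fgf5 was the strongest Fgf gene with a −log10 q of 2.45 over a CpG-rich start, 174879 bp from the nearest peak of another list. Fgf21 (1.59) and Fgf15 (1.53), hormones of liver and gut, and Fgf23 (1.36), a hormone of bone, followed with Fgf12 (1.61). Gdf6 (2.81), Gdf3 (2.26) and Gdf7 (2.02) led the Bmp and Gdf genes, and Wnt8b (1.87) and Wnt16 (1.40) the Wnt genes.

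Ion channels and neurotransmitter receptors held members in 72 of 212 genes (34.0%, interval 27.9% to 40.6%). GABA and glutamate receptor genes had 16 of 37, led by Gabra2 (2.69) and by Grik2 (2.35, an alternative start), Grin3a (2.20) and Grin2a (2.12). Calcium and sodium channel genes had 15 of 39. Among them were Cacng5 (2.53), Cacng3 (2.38), the calcium channel subunit gene Cacna1b (2.38) and Scn10a (2.13), a sodium channel of sensory neurons. Potassium channel genes had 30 of 92, led by Kcnip4 (2.14), Kcnip2 (2.11), Kcnj3 (2.08) and Kcnc1 (1.98). Receptors for acetylcholine, serotonin, dopamine and adrenaline had 11 of 44, where Htr6 (2.24), Chrnb2 and Chrna9 (both 1.91) followed Chrna5.

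Among genes not called elsewhere, where the background is 22.2%, 55 of 108 transcription factor genes and 61 of 100 channel and receptor genes had a member. These genes were then divided by CpG content. Among genes not called elsewhere and with a CpG-rich start, 392 of 618 had a member (63.4%). For the transcription factor families it was 41 of 78 (52.6%), for channels and receptors 20 of 33 (60.6%), and for genes outside these families 331 of 507 (65.3%). In this class the families did not stand above the rest. Among genes not called elsewhere and without a CpG-rich start, 1092 of 6071 had a member (17.99%). There the transcription factors stood at 14 of 30 (46.7%) and channels and receptors at 41 of 67 (61.2%). Genes outside the families stood at 988 of 4535 (21.8%), and olfactory and vomeronasal receptor genes at 49 of 1439 (3.41%). This division by CpG content counts gene identifiers, whereas the other family counts use gene symbols and can differ slightly. With lists of equal length, 9.95% of all 201 transcription factor genes, 16.5% of all 212 channel and receptor genes and 3.79% of all genes had a member.

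Other families served for comparison. Families whose genes were nearly all called in other lists held few members, with 0 of 67 replication-dependent histone genes, 1 of 122 mitochondrial ribosomal and Nduf genes and 2 of 92 ribosomal protein genes. Members were rare among all genes called in other lists (548 of 14031). Olfactory receptor genes, expressed in the nose, had 45 of 1126 (3.996%), and vomeronasal receptor genes 5 of 328 (1.52%). Zinc finger (Zfp) genes had 24 of 385 (6.23%). The share of multi-copy words was 49.3% at the strongest of these, Zfp984, 0% at the next, Zfp385b, and 68.1% at Zfp982. Solute carrier genes had 60 of 372 (16.1%), keratin genes 11 of 49, protocadherin genes 15 of 66, cadherin genes 6 of 23, claudin genes 4 of 22, collagen genes 5 of 42 and interleukin and chemokine genes 7 of 72.

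Members were spread over all 19 chromosomes but not evenly. Their number per 100 protein-coding starts ranged from 4.06 on chromosome 13 to 7.04 on chromosome 17. When members less than 100 kb apart were joined, 1191 stood alone and 247 pairs formed. The largest group had 14 members (chr10:77686744-77862949) at Tspear, the keratin-associated protein genes Krtap10-4 and Krtap10-10 and predicted genes, and 6 of them were multi-copy. A group of 11 (chr7:45614616-45871536) ran from Fgf21 past Kcnj14 to Grin2d, and another of 11 (chr10:79541533-79913977) held Hcn2, a pacemaker channel, and the protease genes Prtn3 and Gzmm. A group of 10 (chr17:23660446-24038949) held the serine protease genes Prss21, Prss22, Prss27, Prss32 and Prss41 beside unrelated genes such as Thoc6 and Kremen2. A group of 8 (chr7:142120101-142304119) lay at Krtap5 genes and 3 predicted genes, 6 of the 8 multi-copy. A group of 7 on chromosome 15 lay at keratin genes from Krt7 to Krt5, 4 of the 7 multi-copy.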

How the data were processed

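H3K27ac ChIP-seq peak lists of 7 mouse adrenal libraries were used. The authors aligned reads and called broad peaks with tools that the submitters' processing notes name (CASAVA 1.8.2, Bowtie2 2.3.4.3, MACS2 2.1.1, deepTools 3.2.2.0, build mm10); the cutoff and control of the calls are not given in the sources used here. Each deposited peak has a score, a fold enrichment (a ratio over the caller's background), a −log10 p-value and a −log10 q-value, per the deposited values and the format of the lists. The peaks were called for each library alone. These values were used only within a list, and the lists give no counts or depth.

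Peaks on chromosomes 1 to 19 were merged where they shared at least 1 base, and a region was called in a list when it overlapped a peak. Promoter regions lay within 1 kb of a protein-coding start of the GENCODE M21 basic set. No peak ended past a chromosome of GRCm38 (0 of 412141), which gave the sequences. The start nearest a peak's midpoint gave its CpG content. Positions count from 1. Named are the 20 strongest and 10 widest members, members in the 16 gene lists, and up to 4 per list or family by −log10 q; further members of a family, and features such as the fold, were singled out after their values were seen. The members, lists and families were chosen with earlier results of these data known. Some members that this rule names are not reported here. E18.5 has 1 library and the lists hold no counts, so no comparison was tested. The overlap step was checked on simulated data (6000 of 6000 patterns recovered) and with bedtools 2.31.1. Scripts ran under Python 3.11.15 (numpy 2.4.6, pandas 2.3.3). Alternatives were stricter peaks, lists of equal length, other promoter windows, merging across gaps, a distance to other peaks and leaving out the 12-week female list.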

Additional observations from a re-analysis of the deposited data

How the results depend on the processing

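No paired analysis was possible because each group has 1 library, and for the same reason no replicate could be left out. The number of members (2157) depended on the peaks admitted. In the order number of members, promoter share of E18.5-only regions, share with a peak of another list within 1 kb, share CpG-rich, share of member genes with any start called in another list, and genes in the lists, a −log10 q of at least 2 in every list gave 599, 5.80%, 5.01%, 40.9%, 16.5% and 15, although at most 381 of these 599 can be members. At least 5 in every list gave 191, 58.2%, 1.05%, 85.3%, 7.41% and 4, but only 6 of these 191 are members, since 185 have a weaker peak in another list. At least 2 at E18.5 against all peaks elsewhere gave 381, 4.18%, 9.45%, 37.5%, 19.7% and 7. The 43638 strongest peaks of each list gave 802 (705 of them members), 4.33%, 7.36%, 33.8%, 20.7% and 13, and 45.3% under a −log10 q of 2. A window of 2 kb gave 3583, 5.57%, 19.8%, 26.2% and 45.3% in the first 5 of these. A window of 0.5 kb gave 2.63%, 8.80%, 23.6% and 21.2% in the 4 shares, with the number within 1.5 times. With no other peak within 5 kb, the number was 1401, 27.1% CpG-rich, 10.7% with a start called elsewhere and 79.9% under 2. Merging across gaps of up to 1 kb moved the share with a near peak to 0, by construction, and that of genes called elsewhere to 18.52%. Without the 12-week female list, the promoter share was 3.60%, the near-peak share 10.4% and the share of genes called elsewhere 24.8%. Taking E18.5 peaks singly gave identical values by construction.

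Alternatives for the families were added after seeing the data. The shares of transcription factor genes, channel and receptor genes and all genes were 9.95%, 16.5% and 3.79% with lists of equal length, 4.98%, 6.604% and 1.81% with at least 2 at E18.5, and 24.5% for channels and 6.37% for all genes with no peak within 5 kb (transcription factors 26.9%). Without the 12-week female list all genes stood at 10.9%. In each of these settings both families stood above all genes. Of 78 recomputed values 52 moved, a count by over 1.5 times or a share beyond the 95% interval of its original value; the other 26 stayed within these limits, although many changed.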

Other observations

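Chromosome X lay outside the set of members. There 47 of 1197 regions called only at E18.5 lay at a protein-coding start (3.93%, interval 2.97% to 5.18%). The strongest were at Rab39b, a GTPase of neurons (−log10 q of 4.66, fold 4.23), and Rps6ka6, a kinase (4.01). L1cam, an adhesion protein of axons, had 2.74.

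Starts of genes that code for no protein also had regions called only at E18.5. These were found at 616 of 5972 lincRNA starts (10.3%), 407 of 3380 antisense starts (12.0%), 1067 of 8921 processed pseudogene starts (12.0%) and 256 of 2054 miRNA starts (12.5%). For comparison, 2886 of 39515 protein-coding starts lay within 1 kb of a member. The strongest was at Gm23935 (chr16:11143851-11144386) with a −log10 q of 23.0, above that of any member. The region at Gm26917, Gm42418 and AY036118 (chr17:39842967-39848876) had 17.2, and that at the processed pseudogene Gm12896 had 11.6. Multi-copy words were not counted for these regions, so whether their reads come from other copies was not tested and the genes are uncertain.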
